A study of Mus musculus with 12 samples.

Results

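The genes described here are the mitophagy receptors Bnip3, Bnip3l, Fundc1, Bcl2l13, Fkbp8 and Phb2 together with Pink1, the kinase of the other main route into mitophagy. They are 7 of the 24343 genes of the expression tables and passed a filter on low values. They were picked by name, with earlier results of these data known. In HT22 cells, Bnip3 and Bnip3l mRNA rose under iron chelation, by 3.82-fold and 2.42-fold in control cells. Fundc1 moved the other way, to 0.574 of its control level, and was about 2-fold higher when Ncoa4 was silenced, with iron restriction or without it. Fkbp8 and Phb2 fell under iron chelation, Pink1 was highest in Ncoa4-silenced cells at normal iron, and Bcl2l13 spanned the narrowest range of the 7.

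Mitophagy is the removal of damaged or surplus mitochondria by autophagy. In the receptor route, proteins of the mitochondrial membranes carry a short motif that binds LC3 and GABARAP proteins on the growing autophagosome. In the PINK1 route, the kinase PINK1 builds up on mitochondria that have lost their membrane potential and promotes ubiquitination of the proteins on their surface, and the ubiquitin chains are then read by adaptors such as p62 and optineurin. Bnip3 and Bnip3l are known targets of hypoxia-inducible factors, whose prolyl hydroxylases need iron, and iron chelators are commonly used to induce mitophagy. NCOA4 is the receptor that takes ferritin to the lysosome, where its iron is released.

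The samples were 12 RNA-seq libraries from HT22, an immortalized mouse hippocampal neuronal line, with 3 biological replicates in each of 4 groups. All cells were transfected with siRNA by lipofection, either a negative control siRNA (siControl) or siRNA to Ncoa4 (siNCOA4), and were kept at normal iron or treated with the iron chelator deferoxamine (DFO) at 100 µM for 24 h. The groups are named siControl, siNCOA4, siControl+DFO and siNCOA4+DFO. The study asked what NCOA4 does in neuronal cells at normal iron and when iron is restricted. It reported altered morphology and lower viability when Ncoa4 silencing and DFO were combined, and unchanged viability with either alone. The part of this in the siNCOA4+DFO levels was not tested. The cells are 1 line, the control cells also carried an siRNA, and whether the replicates came from separate passages was not stated, so the p-values measure the spread between these libraries. The study named 1 siRNA to Ncoa4 for all knockdowns, and effects of its sequence on other genes were not tested here.

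Levels are FPKM, fragments counted per length of transcript and per total of mapped fragments, as the authors deposited them. Differences are log2 fold changes of FPKM + 0.1 from a limma fit over all 12 libraries, with the standard error (SE) and a p-value adjusted by the Benjamini-Hochberg method over the 11924 genes that reached 0.5 FPKM in at least 3 libraries. The pseudocount understates the fold change of low genes. A gene passed the test at an adjusted p below 0.05. With 3 libraries against 3, an exact two-sided permutation test cannot go below p = 0.1, so none is given. The 7 genes passed this filter and entered the fit.

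Read totals cannot be taken from FPKM, but the value of 1 fragment in low genes put the deepest library at 1.52 times the depth of the shallowest. Ncoa4, the targeted gene, was at 6.02 to 6.46 FPKM in siControl and 0.770 to 0.952 FPKM in siNCOA4 libraries, and at 7.52 to 8.70 FPKM in siControl+DFO and 0.850 to 1.57 FPKM in siNCOA4+DFO. The knockdown thus matched the label in every library. Of 16 neuronal markers, 2 (Tubb3 and Dlg4) reached 1 FPKM in any library and 5, among them Slc17a6 and Gad1, were listed at 0 throughout. All 6 fibroblast and mesenchymal markers reached it, and their summed level was 3126 to 3554 FPKM in siControl, 2311 to 2510 in siNCOA4, 1851 to 1929 in siControl+DFO and 1636 to 1833 in siNCOA4+DFO. Of other cell types, 2 of 5 astrocyte markers, 1 of 4 oligodendrocyte markers, 1 of 4 microglial markers and 3 of 3 markers of cycling cells reached 1 FPKM. The summed astrocyte markers were at 36.4 to 46.0 FPKM in siControl, 22.5 to 27.0 in siNCOA4, 3.18 to 5.42 in siControl+DFO and 6.95 to 15.1 in siNCOA4+DFO. That sum was mostly Slc1a3, at group means of 42.2, 24.0, 3.60 and 7.13 FPKM in the same order, while Aldh1l1 (0.324, 0.811, 0.679 and 2.50) and Gfap (0, 0.0324, 0.200 and 0.490) were lowest in siControl. The microglial sum, mostly Tmem119, was at 9.98 to 11.9, 3.79 to 5.65, 1.09 to 1.73 and 0.633 to 2.15 FPKM, and the oligodendrocyte sum at 0.811 to 1.47, 0.286 to 0.700, 0.569 to 1.01 and 0.822 to 0.928 FPKM. The cycling markers summed to 526 to 560, 489 to 520, 444 to 498 and 416 to 500 FPKM, with Top2a lower (260 in siControl, 161 in siControl+DFO) and Pcna higher (99.4 and 143) under DFO. The part of these shifts in the results was not tested, and fewer cells of a kind cannot be told apart from less RNA per cell.

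Bnip3 encodes an outer-membrane receptor of the BH3-only family that binds LC3. It lies on the minus strand at chr7:138890836-138909519 of GRCm38 (mm10). Its promoter is shown because the 250 bases before its RefSeq start hold 5 matches to core motifs that hypoxia-inducible factors recognize. That is more than in the other members with an entry. The motifs searched on both strands were ACGTG and GCGTG, and capitals mark them in the stretch upstream of both annotated starts, chr7:138909520-138909756, read 5′ to 3′ on the minus strand from the RefSeq promoter table of GRCm38.

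Bnip3 promoter: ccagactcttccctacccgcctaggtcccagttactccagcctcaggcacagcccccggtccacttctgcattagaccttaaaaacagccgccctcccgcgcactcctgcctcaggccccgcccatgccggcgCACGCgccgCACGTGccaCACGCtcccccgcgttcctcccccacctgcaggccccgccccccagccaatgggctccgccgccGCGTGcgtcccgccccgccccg

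The matches are 2 of ACGTG, which overlap within one CACGTG read on both strands, and 3 of GCGTG. Of 32851 promoter windows of this length, 16.6% held ACGTG, 28.2% held GCGTG, 38.6% held either and 6.58% held 3 or more. In the same window Fkbp8 had 2 matches, Pink1, Bcl2l13 and Phb2 had 1 each, and Fundc1 had 0. The Fundc1 window, placed by its RefSeq start, lies inside the gene as GENCODE M21 annotates it, so the 0 does not describe the sequence upstream of the GENCODE start. The Bnip3 window held 72.4% G and C, against 57.2 to 63.2% in the other members with an entry. The shares over all promoter windows were not matched for this. A match describes the letters only.

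The 3 Bnip3 values were 45.0, 39.7 and 42.7 FPKM in siControl, 35.4, 31.1 and 33.6 FPKM in siNCOA4, 183, 142 and 161 FPKM in siControl+DFO, and 151, 153 and 174 FPKM in siNCOA4+DFO. Every DFO library was at least 3 times any library at normal iron, and the siNCOA4 libraries lay below the siControl libraries without overlap. With DFO, Bnip3 rose by 1.92 (SE 0.0982, adjusted p = 2.10e-08) on the log2 scale in control cells and by 2.25 (SE 0.0982, adjusted p = 2.55e-08) in Ncoa4-silenced cells. At normal iron, silencing lowered it by a log2 change of -0.35 (SE 0.0982, adjusted p = 0.0393). That call was lost in each of the 6 fits that left out a siControl or siNCOA4 library, with adjusted p from 0.0531 without siControl replicate 2 to 0.142 without siNCOA4 replicate 2, in the fits without siControl+DFO replicate 3 (0.0558) or siNCOA4+DFO replicate 2 (0.0505), with quantile scaling (0.105), without the filter (0.0601) and without the variance trend (0.0743). Under DFO the groups overlapped, at a difference of -0.02 with a 95% interval of -0.24 to 0.19. The interaction, the change with DFO in silenced cells minus that in control cells, was 0.33 (95% interval 0.02 to 0.63) and did not pass the test (adjusted p = 0.238).

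Bnip3l, also called NIX, is the close relative of Bnip3 that clears mitochondria from maturing red cells. It lies at chr14:66985239-67008877 on the minus strand. It stood at 22.1, 17.7 and 17.6 FPKM in siControl and at 20.0, 20.6 and 18.1 FPKM in siNCOA4, and these groups overlapped. It reached 45.8, 45.5 and 47.6 FPKM in siControl+DFO and 39.5, 35.5 and 40.9 FPKM in siNCOA4+DFO. All DFO libraries were above all libraries at normal iron, and among them the silenced cells were the lower group without overlap. The rise was 1.28 (SE 0.0982, adjusted p = 5.61e-07) in control cells and 0.98 (SE 0.0982, adjusted p = 9.89e-06) in silenced cells. Between the 2 DFO groups the difference of -0.26 missed the threshold (adjusted p = 0.0873), and passed it only in the fit without siControl replicate 1 (adjusted p = 0.0387). The interaction was -0.30 (95% interval -0.60 to 0.00113, adjusted p = 0.278). The rises of Bnip3 and Bnip3l with DFO kept an adjusted p below 0.05 in every alternative fit, those leaving out a library included, while the rise of Bnip3l in silenced cells was below 2-fold.

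Fundc1, an outer-membrane receptor tied to hypoxia-induced mitophagy, whose LC3 binding is controlled by phosphorylation, lies at chrX:17556564-17572325 on the minus strand. It was at 5.79, 6.92 and 7.59 FPKM in siControl and at 10.1, 15.6 and 14.0 FPKM in siNCOA4. Under DFO it was at 4.62, 3.49 and 3.54 FPKM in control cells and 7.67, 7.40 and 10.955 FPKM in silenced cells. The silenced libraries were above their controls without overlap at both iron levels, by 1.96 and 2.23 times in group means. The differences were 0.94 (SE 0.201, adjusted p = 0.0105) at normal iron and 1.13 (SE 0.201, adjusted p = 0.00339) under DFO. The first fell short of the threshold without siNCOA4 replicate 2, the highest library (0.82, adjusted p = 0.0536). DFO lowered Fundc1 in control cells by a log2 change of -0.79 (SE 0.201, adjusted p = 0.00550), with no overlap. In silenced cells the change was -0.61 (adjusted p = 0.0285) between groups that overlapped, and the call was lost on leaving out any of 4 libraries, with adjusted p up to 0.113 without siNCOA4 replicate 2, 0.0882 without siNCOA4 replicate 3, 0.0928 without siNCOA4+DFO replicate 1 and 0.103 without siNCOA4+DFO replicate 2, and with the compared groups alone (0.0534). Silenced cells under DFO and control cells at normal iron overlapped (0.34, 95% interval -0.10 to 0.78). The interaction was 0.18 (95% interval -0.43 to 0.80).

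**Figure D1:**
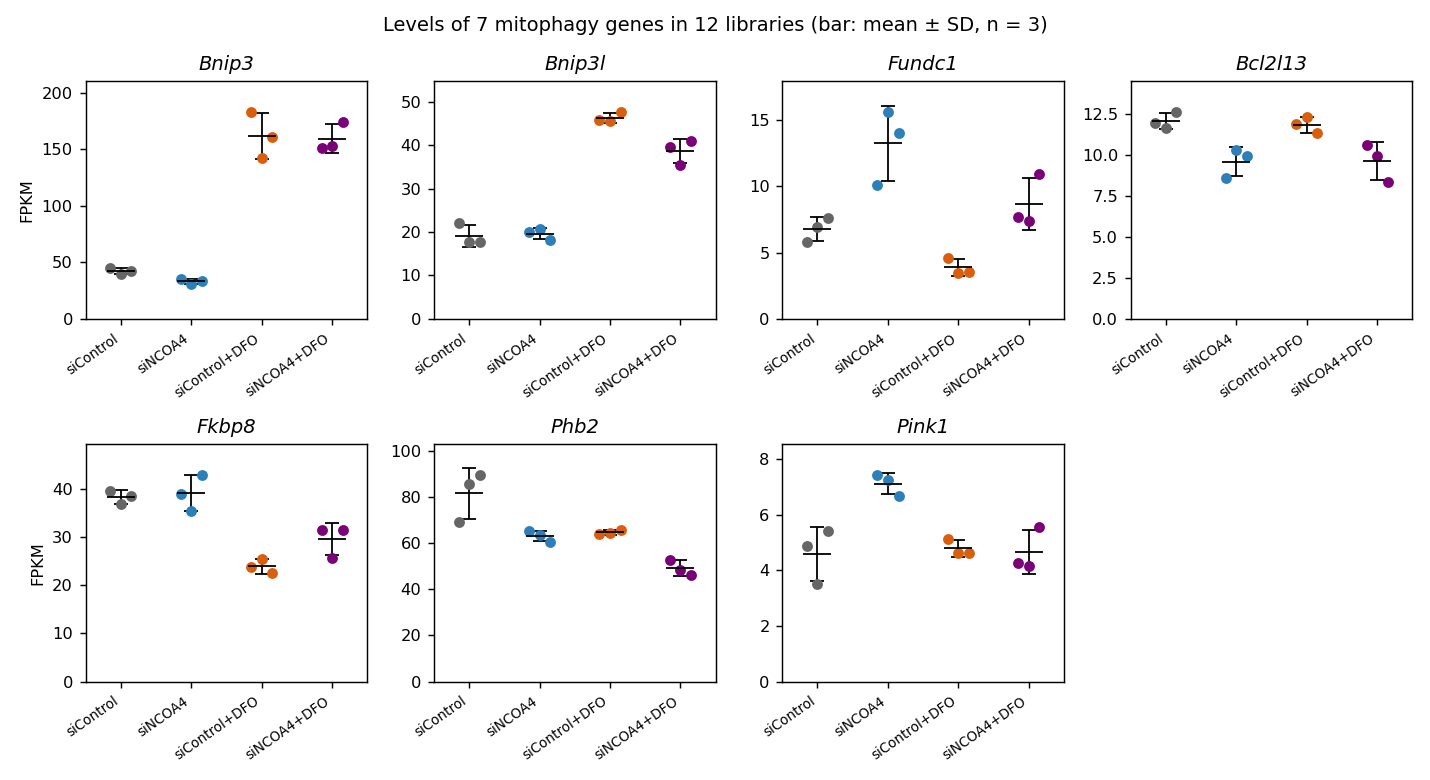
FPKM (y axis, from 0, scaled per panel) of the 7 genes in the 4 groups (x axis), with a point for each library and bars for the mean ± SD of 3 libraries. Bnip3 stood at 142 FPKM or more in all DFO libraries and at 45.0 or less in the others, whereas Fundc1 was highest in siNCOA4 (10.1 to 15.6 FPKM) and lowest in siControl+DFO (3.49 to 4.62 FPKM).

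Among the other receptors, Fkbp8 fell under DFO. It encodes an outer-membrane immunophilin that binds LC3A and also restrains apoptosis, and lies at chr8:70527724-70535328 on the plus strand. It was at 39.5, 36.7 and 38.6 FPKM in siControl, 38.9, 35.4 and 42.9 FPKM in siNCOA4, 23.8, 25.4 and 22.4 FPKM in siControl+DFO, and 31.4, 25.7 and 31.4 FPKM in siNCOA4+DFO. The groups at normal iron overlapped, and each DFO group lay below its own control. The change with DFO was -0.68 (SE 0.0981, adjusted p = 9.71e-05) in control cells and -0.41 (SE 0.0981, adjusted p = 0.00530) in silenced cells. Silenced cells under DFO were above control cells under DFO without overlap, but the difference of 0.30 did not pass the test (adjusted p = 0.0563). It passed without siNCOA4+DFO replicate 2, the lowest of its group (0.40, adjusted p = 0.0206), and with quantile scaling (0.39, adjusted p = 0.0235). The interaction was 0.27 (95% interval -0.03 to 0.58).

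Phb2, an inner-membrane prohibitin exposed to LC3 once the outer membrane ruptures, was the most abundant of the 7 genes at normal iron and lies at chr6:124712336-124716950 on the plus strand. It was at 69.1, 85.8 and 89.6 FPKM in siControl, 65.0, 63.4 and 60.5 FPKM in siNCOA4, 63.8, 64.4 and 65.7 FPKM in siControl+DFO, and 52.9, 48.3 and 46.3 FPKM in siNCOA4+DFO. Each treatment alone was below siControl without overlap, both together were lowest, and the ranges of the single treatments overlapped each other. Silencing changed it by -0.36 (SE 0.0927, adjusted p = 0.0255) at normal iron and -0.40 (SE 0.0927, adjusted p = 0.0134) under DFO, and DFO by -0.33 (SE 0.0927, adjusted p = 0.0106) in control cells and -0.36 (SE 0.0927, adjusted p = 0.00803) in silenced cells. Both together gave -0.72 (adjusted p = 4.55e-05), and the interaction was -0.03 (95% interval -0.32 to 0.25). The silencing call at normal iron was lost without siControl replicates 2 or 3 or any siNCOA4 library (adjusted p 0.0516 to 0.0899), in the fit of the compared groups alone (0.0851) and without the variance trend (0.0525). The call for DFO in control cells was lost without siControl replicate 3 (-0.25, adjusted p = 0.0509), and that for silencing under DFO with quantile scaling (-0.26, adjusted p = 0.0601).

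Bcl2l13, the mammalian receptor that resembles yeast Atg32, lies at chr6:120836212-120892842 on the plus strand. It stood at 11.9, 11.7 and 12.6 FPKM in siControl and at 11.9, 12.3 and 11.3 FPKM in siControl+DFO, and those groups overlapped (log2 difference -0.03, 95% interval -0.27 to 0.22). In silenced cells it was at 8.58, 10.3 and 9.92 FPKM at normal iron and 10.6, 9.97 and 8.34 FPKM under DFO, below the matching controls without overlap. Neither difference passed the test, at -0.33 (adjusted p = 0.0792) and -0.30 (adjusted p = 0.0878), and the first passed only without siNCOA4+DFO replicate 3 (adjusted p = 0.0414). The difference of siNCOA4+DFO from siControl did pass (-0.33, SE 0.112, adjusted p = 0.0286), but not without siControl replicate 1 (0.0512), siControl replicate 3 (0.0881) or siNCOA4+DFO replicate 3 (0.0998), nor with the compared groups alone (0.0698).

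Pink1, which encodes the kinase that senses depolarized mitochondria, lies at chr4:138313409-138326307 on the minus strand. It was at 4.86, 3.52 and 5.41 FPKM in siControl, 7.43, 7.22 and 6.68 FPKM in siNCOA4, 5.14, 4.603 and 4.63 FPKM in siControl+DFO, and 4.243, 4.17 and 5.56 FPKM in siNCOA4+DFO. The siNCOA4 libraries at normal iron stood above all 9 others, which overlapped one another. Silencing raised it by 0.64 (SE 0.173, adjusted p = 0.0325) at normal iron, and under DFO the difference was -0.05 (95% interval -0.43 to 0.33). DFO changed it by -0.61 (SE 0.173, adjusted p = 0.0128) in silenced cells, whereas in control cells the difference was 0.08 (95% interval -0.30 to 0.46). The difference between these effects, an interaction of -0.69 (95% interval -1.22 to -0.16), had an unadjusted p of 0.0152 and an adjusted p of 0.157 and did not pass. The call for silencing at normal iron was lost without siControl replicates 1 or 2 or any siNCOA4 library, with adjusted p from 0.0573 without siControl replicate 1 to 0.109 without siControl replicate 2, and also without the filter (0.0513) and with the compared groups alone (0.079). The call for DFO in silenced cells was lost without siNCOA4+DFO replicate 2 (adjusted p = 0.0502).

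**Figure D2:**
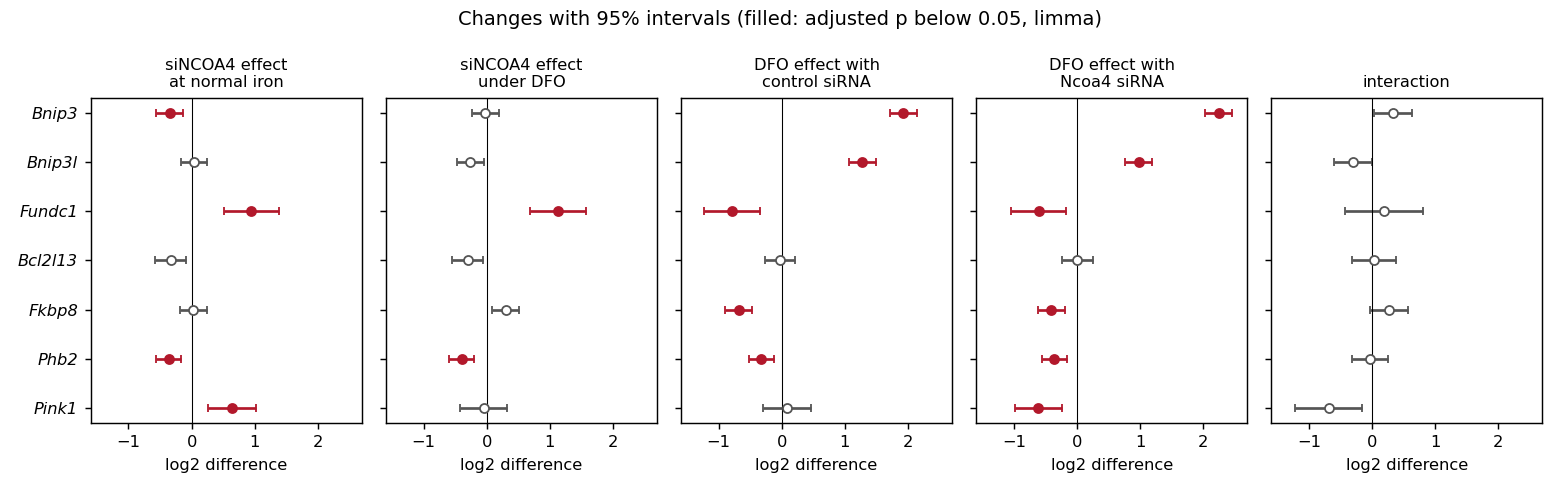
Log2 fold change (limma on FPKM + 0.1) of the 7 genes that entered the fit, with 95% intervals, for silencing at normal iron and under DFO, for DFO in control and silenced cells and for the interaction, filled where the adjusted p was below 0.05. Bnip3 and Bnip3l lie at 0.98 or above in the comparisons with DFO against normal iron, and Fundc1 lies at 0.94 and 1.13 in the comparisons of silenced with control cells.

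In siNCOA4 against siControl, 4 of the 7 members passed the test, beside 11.7% of all genes tested. Fundc1 and Pink1 were higher, as were 4.52% of all genes, and Bnip3 and Phb2 were lower, as were 7.21%. Groups did not overlap in 5 of 7 members, beside 32.6% of all genes. The count of 4 ranged from 0 to 5 when single libraries were left out, with 0 reached without siNCOA4 replicate 2, 1 without siControl replicate 2 or siNCOA4 replicates 1 or 3, and 2 without siControl replicates 1 or 3.

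Iron chelation moved a large share of all genes, the members among them. In siControl+DFO against siControl, 5 of 7 passed, beside 53.4% of all genes, with Bnip3 and Bnip3l higher (27.7% of all genes) and Fundc1, Fkbp8 and Phb2 lower (25.7%). The 5 that passed also did not overlap, beside 60.7% of all genes, so both shares were near the background. In siNCOA4+DFO against siNCOA4, 6 of 7 passed, beside 42.7% of all genes, with Bnip3 and Bnip3l higher (23.1%) and Fundc1, Pink1, Fkbp8 and Phb2 lower (19.6%), and 5 did not overlap, beside 52.6%. In siNCOA4+DFO against siControl, 5 of 7 passed, beside 48.8%, with Bnip3 and Bnip3l higher (25.4%) and Bcl2l13, Fkbp8 and Phb2 lower (23.4%), and 5 did not overlap, beside 54.8%.

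In siNCOA4+DFO against siControl+DFO, 2 of 7 passed, beside 16.5% of all genes, with Fundc1 higher (6.22%) and Phb2 lower (10.2%), and 5 did not overlap, beside 34.8%. These comparisons share libraries and are not independent. In the interaction 0 of 7 passed by limma, beside 2.1% of all genes, while Bnip3 and Pink1 had an unadjusted p below 0.05, as did 18.2% of all genes.

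The study's rule asked for a fold change above 2 besides. By that rule Bnip3 and Bnip3l passed in siControl+DFO against siControl, where 18.8% of all genes did, and both passed in siNCOA4+DFO against siControl, where 15.2% did. Bnip3 passed in siNCOA4+DFO against siNCOA4, where 11.4% did. Fundc1 passed in siNCOA4+DFO against siControl+DFO, where 2.09% did. Its log2 change there, 1.13, fell as low as 0.951 with single libraries left out and 0.976 in the other alternative fits, both below 2-fold. Likewise Bnip3l in siNCOA4+DFO against siControl, at 1.02, fell as low as 0.96 and 0.982. In siNCOA4 against siControl 0 of 7 passed, where 1.78% did, and 0 passed in the interaction, where 0.813% did. Median log2 fold changes of the 7 members lay between -0.36 and 0.03 over the 6 comparisons, and the medians of all genes lay within 0.02 of 0. By size of change, Bnip3 was higher than 95.1% of all tested genes for DFO in control cells and 97.7% in silenced cells, and Fundc1 was higher than 96.7% for silencing at normal iron and 97.5% under DFO.

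The mixture of receptor mRNAs changed with the treatment. FPKM is per length, so levels can be added across genes. The FPKM of all genes together also differed between groups. It was 615784 to 627826 in siControl, 565558 to 599095 in siNCOA4, 676428 to 723077 in siControl+DFO and 691486 to 737313 in siNCOA4+DFO. The sums below were not scaled to these totals. The summed level of the 6 receptors, without Pink1, was 200 ± 7.71 FPKM in siControl, 178 ± 1.31 in siNCOA4, 313 ± 19.7 in siControl+DFO and 295 ± 16.4 in siNCOA4+DFO (SD, n = 3). Bnip3 made up 20.0 to 23.3% of that sum in siControl and 17.6 to 19.9% in siNCOA4, and 48.5 to 55.0% and 51.5 to 55.8% in the 2 DFO groups. Phb2 led at normal iron, with 33.8 to 43.2% of the sum, and dropped to 14.8 to 22.0% under DFO. Fundc1 was the smallest component in both siControl groups and passed Bcl2l13 in all siNCOA4 libraries and in siNCOA4+DFO replicate 3, at 2.99 to 3.64% in siControl, 5.68 to 8.85% in siNCOA4, 1.14 to 1.39% in siControl+DFO and 2.62 to 3.51% in siNCOA4+DFO. The ratio of Bnip3 to Fundc1, both linked to hypoxia, averaged 6.38 in siControl, 2.63 in siNCOA4, 42.0 in siControl+DFO and 18.7 in siNCOA4+DFO. The ratio of Bnip3 to Bnip3l was 2.24 ± 0.193, 1.71 ± 0.178, 3.51 ± 0.447 and 4.13 ± 0.266 in the same order. These shares follow from the levels above and carry no test of their own.

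**Figure D3:**
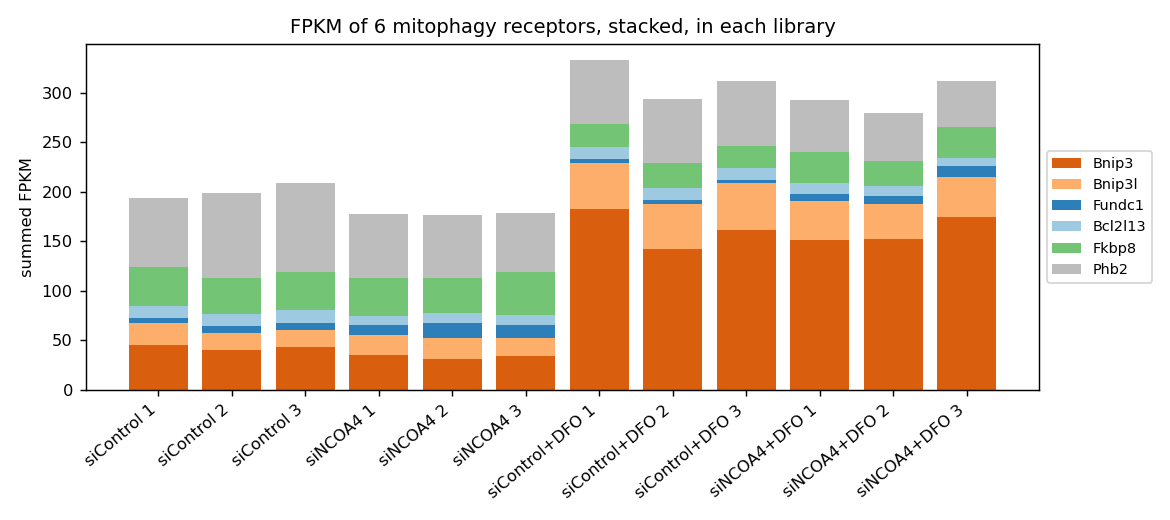
FPKM of the 6 mitophagy receptors stacked for each of the 12 libraries (x axis, y axis in summed FPKM). The stacks reach 176 to 209 at normal iron and 279.5 to 333 under DFO, and the Bnip3 segment grows from at most 45.0 FPKM to at least 142 FPKM.

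Bnip3, Bnip3l and Fundc1 spanned more than 1 log2 unit between group means, and the genes whose profile over the 12 libraries was most like theirs were sought among 10835 genes by the root mean square difference of log2 values, each centred on its own mean. Closest to Bnip3 were Vegfa (0.183), the angiogenic growth factor, Chac1 (0.184), a glutathione-degrading enzyme of the stress response, and Hk2 (0.204), a hexokinase of glycolysis. Vegfa averaged 23.8 FPKM in siControl, 18.8 in siNCOA4, 103 in siControl+DFO and 84.5 in siNCOA4+DFO. Closest to Bnip3l were Rc3h1 (0.0604), an RNA-binding ubiquitin ligase, Kansl1 (0.0802), a subunit of a histone acetyltransferase complex, and Btaf1 (0.0845), a TBP-associated ATPase. Closest to Fundc1 were Dera (0.256), a deoxyribose-phosphate aldolase, Tmem106c (0.264) and Nqo2 (0.269), a quinone reductase. Dera averaged 7.63 FPKM in siControl, 10.7 in siNCOA4, 4.51 in siControl+DFO and 7.78 in siNCOA4+DFO. Like Fundc1, Dera was highest in siNCOA4 and lowest in siControl+DFO, which the choice by likeness favours.

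The other genes of both routes were taken from lists by role, which were chosen with earlier results of these data known. Of 18 targets of hypoxia-inducible factors outside mitophagy, 17 were tested, and 16 rose with DFO in control cells and 0 fell. Of all genes 27.7% were higher and 25.7% lower there. The median log2 change was 1.84, beside -0.01 over all genes. Ero1l, an oxidoreductase of the endoplasmic reticulum, rose by 3.94 (SE 0.122), Ndrg1, a stress-response gene, by 3.16 (SE 0.15) and Ddit4, an inhibitor of mTORC1, by 2.73 (SE 0.122). With silencing at normal iron 5 fell, Vegfa among them (-0.34), and 1, Ero1l, rose (0.88), beside 7.21% of all genes lower and 4.52% higher. Ddit4 (-0.87, adjusted p = 0.0271) and Ero1l (-0.84, adjusted p = 0.0322) also passed the test of interaction, as did 2.1% of all genes. Under DFO, 5 of the 17 were lower in silenced than in control cells and 0 higher, beside 10.2% of all genes lower and 6.22% higher. Egln3 was below the filter.

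Of 7 genes tested among the readers of the ubiquitin signal and their kinase, 5 rose with DFO in control cells and 0 fell, at a median of 0.82, beside 27.7% of all genes higher. Tbk1, the kinase, and Calcoco1 did not pass, at -0.07 (adjusted p = 0.557) and 0.03 (adjusted p = 0.862). Sqstm1 (p62) went from 136 ± 5.35 to 604 ± 38.1 FPKM (SD, n = 3), a log2 change of 2.15 (SE 0.124, adjusted p = 5.10e-08), and Tollip and Optn (optineurin) rose by 0.92 (SE 0.134) and 0.86 (SE 0.120). Sqstm1 was lower in silenced than in control cells under DFO (-0.66, adjusted p = 0.00441). Calcoco2 was below the filter. Of the 5 LC3 and GABARAP genes, 4 rose in control cells and Gabarap fell (-0.40, adjusted p = 0.00395), at a median of 0.58. Of all genes 27.7% were higher and 25.7% lower there. Gabarapl2 rose by 0.61 (SE 0.166), and Map1lc3a and Gabarapl1 by 0.58 each (SE 0.217 and 0.170). With silencing at normal iron 0 of the 7 adaptors and 0 of these 5 passed by limma at an adjusted p below 0.05, and 0 had an unadjusted p below 0.05. By adjusted p, 11.7% of all genes passed in that comparison.

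Of 14 genes of PINK1 import, stabilisation and processing, 5 fell and 2 rose with DFO in control cells, at a median of -0.17, beside 25.7% of all genes lower and 27.7% higher. Oma1, a protease of the inner membrane, changed by -0.90 (SE 0.188), Phb, the partner of Phb2 in the prohibitin ring, by -0.75 (SE 0.119) and Tomm7, a subunit of the import channel that holds PINK1, by -0.54 (SE 0.133). Hsp90aa1, the chaperone, passed the test of interaction (-0.62, adjusted p = 0.0197), at 579 FPKM in siControl, 736 in siNCOA4, 579.6 in siControl+DFO and 477 in siNCOA4+DFO. Of 20 mitochondrial ubiquitin ligases, deubiquitinases and their substrates, 4 fell and 1 rose with DFO in control cells, at a median of 0.01. Over all genes, 25.7% were lower and 27.7% higher in that comparison. The one that rose was March5, a ligase that acts on Fundc1 (1.18, SE 0.142), and Rhot2, a mitochondrial trafficking GTPase, and Fbxo7, an F-box protein, changed by -0.85 (SE 0.120) and -0.56 (SE 0.110). March5 went from 34.1 to 77.2 FPKM and was taken from an entry whose name a spreadsheet had turned into a date.

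Of 16 tested among 17 other receptors and regulators of the receptors, 5 rose and 7 fell with DFO in control cells, at a median of -0.11. Over all genes, 27.7% were higher and 25.7% lower in that comparison. Ulk1, the autophagy kinase that phosphorylates Fundc1, went from 4.04 to 24.5 FPKM (2.57, SE 0.228, adjusted p = 1.77e-06) and Foxo3, a transcription factor known to drive Bnip3, from 9.29 to 49.5 FPKM (2.41, SE 0.148). Tfeb, a regulator of lysosomal genes, went from 4.85 to 1.48 FPKM (-1.69, SE 0.308). With silencing at normal iron, Foxo3 and Ppp1cc fell, by -0.61 and -0.55, and 0 rose, beside 7.21% of all genes lower and 4.52% higher. Under DFO 4 of the 16 were lower in silenced cells, among them Foxo3 (-0.72, adjusted p = 0.00702), and 0 higher. Of all genes 10.2% were lower and 6.22% higher in that comparison. Nlrx1 was below the filter.

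**Figure D4:**
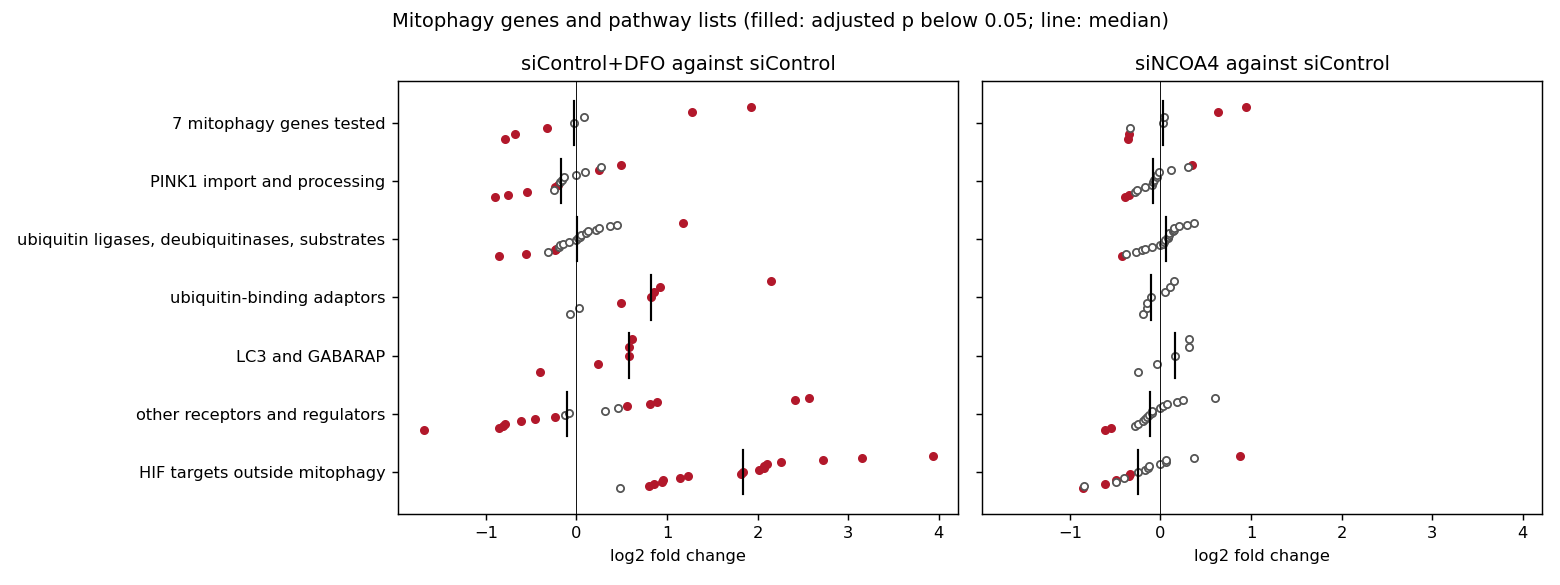
Log2 fold change (limma on FPKM + 0.1, x axes) of the 7 members tested and of each tested gene in the 6 lists by role, with DFO in control cells (left panel) and with silencing at normal iron (right panel), filled where the adjusted p was below 0.05 and with a line at the median. With DFO the targets of hypoxia-inducible factors (median 1.84) and the adaptors (median 0.82) lie mostly to the right of 0, while the median of PINK1 import lies at -0.17. With silencing the medians lie between -0.25 and 0.16.

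Reads of some members can be shared with other annotated genes. Exons on the opposite strand overlap Bnip3 over 504 bases (22.3% of its exons, antisense Gm45507), Bcl2l13 over 628 bases (Bid), Fkbp8 over 224 bases (Kxd1) and Phb2 over 141 bases (Gm15884). The library kit keeps strand, but the strand setting of the counting is not given in the sources used here, so such reads cannot be told apart. In GENCODE M21, 34.4% of 75-base windows of Bnip3 transcripts and 16.9% of those of Bnip3l also occur in other genes, the Bnip3l windows in its pseudogene Bnip3l-ps. The share was 6.20% for Bcl2l13, 2.37% or less for Pink1, Fkbp8 and Phb2, and 0 for Fundc1. Windows were matched on both strands, so those of Bnip3 include matches to the antisense Gm45507. These shares describe sequence only, and how far shared reads alter the levels of Bnip3 and Bnip3l is not known.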

How the data were processed

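Libraries of total RNA came from a stranded kit for low input, and reads were sequenced as 75-bp paired reads, trimmed with Trimmomatic 0.33, checked with FastQC, aligned with HISAT2 2.1.0 to mm10 and counted with featureCounts, with edgeR for normalization, per the submitters' processing notes and the study's methods. The authors deposited FPKM values, 1 table per library with 24347 entries each, of which 4 share a name and were left out. The program that wrote the FPKM, the annotation and the strand setting are not given in the sources used here. The number of mapped reads is unknown, and depth was estimated only relative to siControl replicate 1 (0.928 to 1.411).

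FPKM + 0.1 was log2-transformed and fitted by limma 3.58.1 in R 4.3.3 (lmFit, and eBayes with trend) with 1 mean per group over all 12 libraries (8 residual and 4.07 prior degrees of freedom) and Benjamini-Hochberg adjustment over the genes tested in 1 comparison at a time. Genes needed 0.5 FPKM in 3 libraries. The script was tested on simulated data. No 2 libraries held identical values, and replicates correlated at r = 0.926 to 0.955 across genes. Genes named besides the members were, per list, up to 3 with the largest change with DFO in control cells that passed the test, those that passed the interaction, and for each member spanning over 1 log2 unit the 3 most alike. Vegfa, Gabarap, Ppp1cc and the values of Sqstm1, Foxo3 and Ero1l in other comparisons were added after their values were seen. Tbk1 and Calcoco1 were named as the tested genes of their list that did not pass with DFO in control cells. The members and lists were chosen with earlier results of these data known. Alternatives were the pseudocount, filter, scaling, variance trend, the compared groups alone, a replicate block, the fold limit and leaving out each library. Positions are from GENCODE M21 (GRCm38) and promoters from RefSeq (GRCm38.p6), with 6 of the 7 members matched. Bnip3l has no promoter shown. Of the 8 genes first chosen, 1 is not reported here.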

Additional observations from a re-analysis of the deposited data

How the results depend on the processing

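The DFO rises of Bnip3 and Bnip3l and the higher Fundc1 in silenced cells under DFO kept an adjusted p below 0.05 in every alternative fit, but Bnip3l in silenced cells did not reach the fold limit. Fundc1 in siNCOA4+DFO against siControl+DFO and Bnip3l in siNCOA4+DFO against siControl met the fold limit, but not in every alternative fit. Also kept below 0.05 in every alternative fit were the falls of Fkbp8 with DFO in control and in silenced cells. The same held for the falls of Fundc1 with DFO in control cells and of Phb2 with DFO in silenced cells. Fkbp8 and Phb2 in siNCOA4+DFO against siControl kept it as well. These falls were below the fold limit. The other calls were each lost in some fit, as given with each gene. For silencing at normal iron 4 members passed, but 2 without the filter on low values, with the compared groups alone or without the variance trend, 0 with a fold change above 2 besides, and 0 to 5 when single libraries were left out. With the fold limit the counts were 2 for siControl+DFO against siControl, 2 for siNCOA4+DFO against siControl, 1 for siNCOA4+DFO against siControl+DFO and 1 for siNCOA4+DFO against siNCOA4. Quantile scaling turned the sign of 3 small differences that had not passed the test, to 0.149 for Bnip3 in siNCOA4+DFO against siControl+DFO, -0.0546 for Bcl2l13 in siNCOA4+DFO against siNCOA4 and 0.0414 for the Phb2 interaction.

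Leaving out single libraries also turned the sign of log2 differences that had not passed. They ranged from -0.0168 to 0.146 for Bnip3l and -0.0435 to 0.0937 for Fkbp8 in siNCOA4 against siControl, from -0.0564 to 0.00308 for Bcl2l13 and -0.0976 to 0.206 for Pink1 in siControl+DFO against siControl, and from -0.148 to 0.156 for Pink1 in siNCOA4+DFO against siControl. In siNCOA4+DFO against siControl+DFO they ranged from -0.112 to 0.069 for Bnip3 and -0.182 to 0.0216 for Pink1. For Bcl2l13 they ranged from -0.0751 to 0.103 in siNCOA4+DFO against siNCOA4 and -0.0464 to 0.131 in the interaction, and for the Phb2 interaction from -0.105 to 0.082. Over all genes, the count passing in siNCOA4 against siControl went from 1399 to 724 without siNCOA4 replicate 2 and 858 without siNCOA4 replicate 3. In siNCOA4+DFO against siControl+DFO it went from 1963 to 1149 with the compared groups alone, 1201 without siControl+DFO replicate 2 and 1298 without siNCOA4+DFO replicate 3. In the interaction it went from 250 to 165 with quantile scaling, 164 without the variance trend and, with single libraries left out, to between 76 and 292, the lowest on omitting siControl+DFO replicate 1 and the highest on omitting siNCOA4+DFO replicate 1. The cause was not tested.

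With the replicate number as a block the counts were the same as without it (4, 5, 5, 2, 6 and 0 of 7 in siNCOA4 against siControl, siControl+DFO against siControl, siNCOA4+DFO against siControl, siNCOA4+DFO against siControl+DFO, siNCOA4+DFO against siNCOA4 and the interaction). The deviations of same-numbered libraries from their group means correlated at -0.127 to 0.116 over 18 pairs, and 2 of 12 libraries correlated best with their own number, so the numbers were not treated as a pairing. Because FPKM keeps no read totals, no counting interval can be given.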
